A study of Mus musculus with 3 samples.

Results

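Mesothelial barcodes of mouse lung were taken as the droplet barcodes with at least 1 UMI (a counted transcript molecule) in 3 or more of 8 genes, Msln, Upk3b, Lrrn4, Wt1, Upk1b, Gpm6a, Muc16 and Rspo1. The rule found 580 of 28589 barcodes, of which 84 were among 11934 in the library of dissociated cells, 125 among 6849 in nuclei replicate 1 and 371 among 9806 in nuclei replicate 2. All 3 libraries held wild type C57Bl/6J lung profiled by droplet 3′ RNA sequencing. The cells came from lung tissue digested fresh with enzymes, and the nuclei from snap-frozen lung of adult mice lysed in a detergent buffer. Preparation, the fresh or frozen state and the group therefore cannot be told apart. The labels name no separate animals for the nucleus libraries and the cell library has no replicate, so p-values measure no more than the spread between the libraries at hand.

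The mesothelium is the flat epithelial sheet that covers the lung as visceral pleura and lines the chest wall. It derives from embryonic mesoderm and carries keratins and cell junctions together with mesenchymal genes. In the developing lung it sends fibroblast growth factor signals to the mesenchyme below, and in the adult it makes the glycocalyx and fluid that let the lung slide. The sheet is thin and makes up a small part of the organ.

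The 8 genes that chose the barcodes cover the surface, the nucleus and the secretions of these cells. Msln (chr17:25748613-25754378, minus strand, GRCm38/mm10) encodes mesothelin, a lipid-anchored surface protein, and Muc16 (chr9:18495455-18674530, minus strand) encodes the membrane mucin that binds it. Upk3b (chr5:136038496-136046487, plus strand) and Upk1b (chr16:38773184-38800328, minus strand) encode uroplakins, membrane proteins also found in the bladder lining. Wt1 (chr2:105126529-105173616, plus strand) is a zinc finger transcription factor of the embryonic and adult mesothelium. Lrrn4 (chr2:132868305-132880891, minus strand) and Gpm6a (chr8:54954843-55060871, plus strand) encode membrane proteins, and Rspo1 (chr4:124986430-125009099, plus strand) encodes R-spondin 1, a secreted amplifier of Wnt signalling.

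The promoters of Upk3b and Lrrn4, 2 surface genes that mark the mesothelium, are shown because both hold the letters GGAATG or their reverse complement CATTCC, the core bound by TEAD factors of the Hippo pathway. The windows run from 250 bases before to 50 after the RefSeq gene start on GRCm38.p6, chr5:136038246-136038545 (plus strand) for Upk3b and chr2:132880813-132881112 (minus strand) for Lrrn4, each written 5′ to 3′ along its gene with the core in capitals.
Upk3b: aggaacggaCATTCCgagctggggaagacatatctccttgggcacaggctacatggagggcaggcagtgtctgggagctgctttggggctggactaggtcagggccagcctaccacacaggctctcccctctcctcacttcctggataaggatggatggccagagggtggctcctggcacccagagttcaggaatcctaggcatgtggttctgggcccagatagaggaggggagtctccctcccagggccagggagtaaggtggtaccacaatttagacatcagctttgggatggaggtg
Lrrn4: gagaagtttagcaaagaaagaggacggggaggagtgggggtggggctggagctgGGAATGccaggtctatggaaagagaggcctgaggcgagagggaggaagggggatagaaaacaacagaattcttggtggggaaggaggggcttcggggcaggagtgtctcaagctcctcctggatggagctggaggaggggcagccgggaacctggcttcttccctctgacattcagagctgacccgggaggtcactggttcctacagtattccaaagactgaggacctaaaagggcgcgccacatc
The same core, searched on both strands, was in 3 of the 6 windows the table gives for Upk3b, Lrrn4, Gpm6a, Muc16 and Rspo1, the third being 1 of 2 for Gpm6a, and in 14.7% of 32851 promoters of this length. The letters GTGGGAG, a core bound by WT1, were in 9.73% of those promoters, in neither window shown, and in none of the 6 windows. A match is a description of the letters and not a site of binding.

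Across the series the libraries held 35962788 UMIs in the cell library and 28062109 and 27148272 in the nucleus libraries, with medians of 2864, 4152 and 2521 UMIs per barcode. Of the barcodes, 21 to 24 were shared by each pair of libraries, and all were kept. Levels are given in CPM, counts scaled to a common total over the barcodes named. Xist, transcribed from the inactive X chromosome of females, stood at 250.1 CPM in member cells and 1124 and 0.869 CPM in member nuclei, so the 2 nucleus libraries were not made from 1 same animal and their spread includes the sex of the animals.

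The rule's own genes are given as a description, since their counts picked the barcodes. The 84, 125 and 371 members summed to 259906, 539300 and 1150253 UMIs. Msln stood at 1100 CPM in member cells and at 150.2 and 344.3 CPM in member nuclei, against 0.785, 9.09 and 17.01 CPM in the remaining barcodes of the same libraries. Upk3b stood at 865.7 CPM in member cells, above the 218.8 and 485.1 CPM in member nuclei, and Lrrn4 likewise at 323.2 CPM against 59.3 and 96.5 CPM. The order was the other way for Wt1, at 215.5 CPM in member cells against 298.5 and 460.8 CPM in member nuclei, and for Muc16, at 884.9 CPM against 1183 and 1590 CPM. Gpm6a, the most abundant of the 8, lay at 2428 CPM in member cells and 2935 and 2667 CPM in member nuclei. For Upk1b, 330.9 CPM in member cells lay between the 317.1 and 482.5 CPM of the 2 nucleus libraries, and for Rspo1 so did 307.8 CPM between 324.5 and 267.8 CPM.

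**Figure D1:**
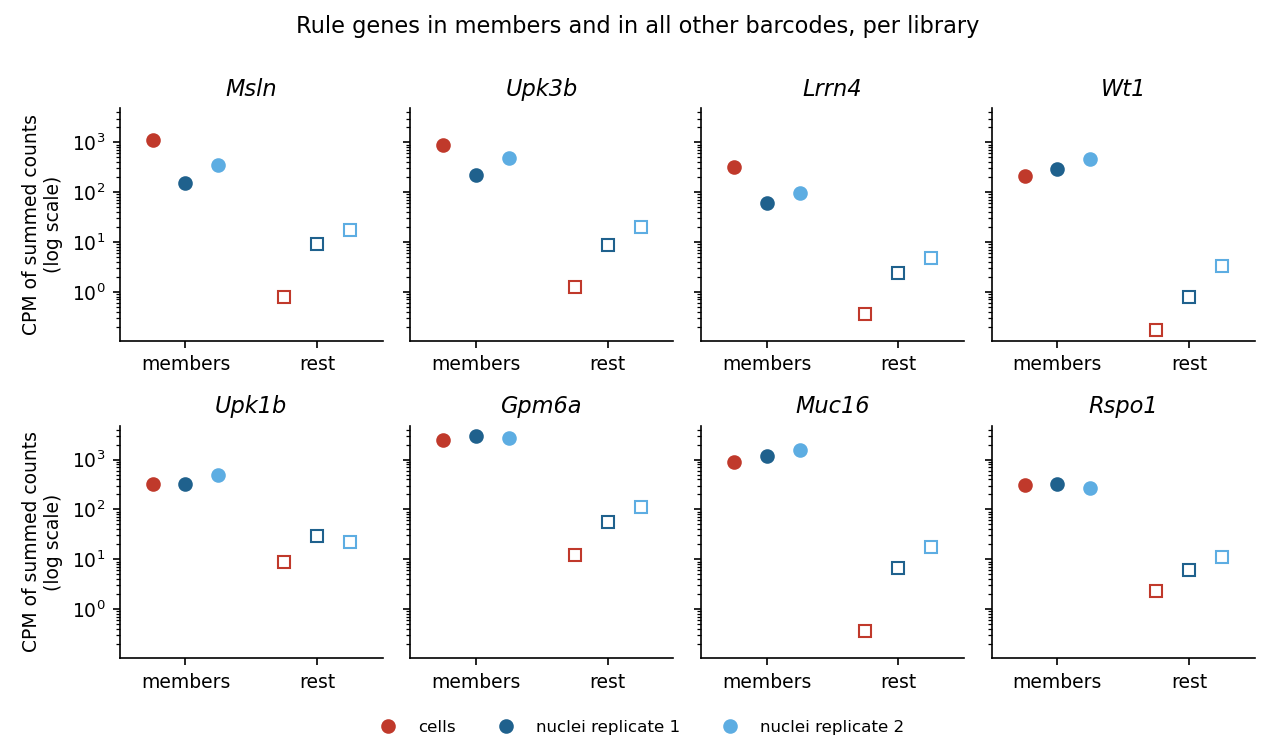
Level of each of the 8 genes of the rule (CPM, log scale) summed over members (filled circles) and over the remaining barcodes (open squares), 1 colour per library. Members lie above the remaining barcodes of their library for all 8 genes, which the rule itself sets, and the remaining cells lie below the remaining nuclei.

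Most members carried more than the least the rule asks. At least 5 of the 8 genes were detected in 66 of 84 member cells (78.6%) and in 70 of 125 (56.0%) and 239 of 371 (64.4%) member nuclei. All 8 were detected in 7 cells and in 3 and 22 nuclei. Gpm6a had a UMI in 97.6% of member cells and in 97.6% and 96.5% of member nuclei, and Msln in 85.7% of member cells against 46.4% and 56.9% of member nuclei. Wt1, in spite of its lower level in cells, had a UMI in 53.6% of member cells and in 50.4% and 62.5% of member nuclei. None of Wt1, Msln and Upk3b was detected in 2 member cells and in 15 and 24 member nuclei.

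**Figure D2:**
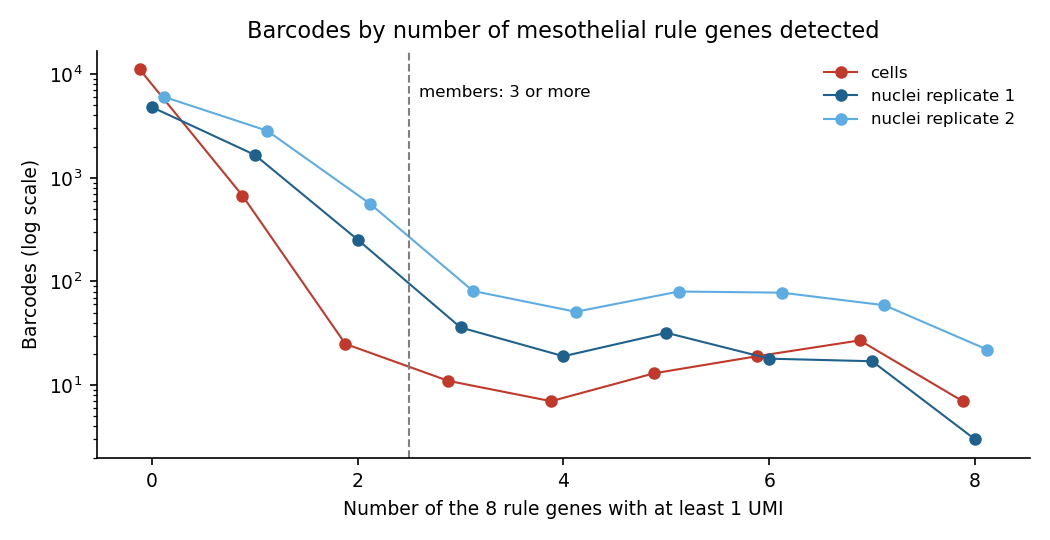
Number of barcodes (log scale) by how many of the 8 genes had a UMI, for each library, with a dashed line at the threshold of 3. Barcodes with exactly 2 genes numbered 25 in the cell library and 253 and 562 in the nucleus libraries, against 11, 36 and 81 with exactly 3.

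Barcodes of other types also held UMIs of these genes, at higher shares in the nucleus libraries. In the cell library Ager, a marker of alveolar type 1 cells, stood at 107.1, 806 and 2257 CPM in barcodes with 0, 1 and 2 of the 8 genes. In nuclei it stood at 129.9, 131.6 and 139.3 CPM in replicate 1 and 209.3, 266.9 and 311.4 CPM in replicate 2. The immune marker Ptprc fell with that number in each library, from 784.7 to 260.9 CPM in the cell library. How far these UMIs are background was not tested. In remaining barcodes with at least 3 of 8 immune markers, Msln had a UMI in 0.206% of cells and in 2.82% and 4.68% of nuclei. Gpm6a had one in 2.18% of cells and 8.71% and 15.7% of nuclei. These barcodes had a median of 2925 UMIs in the cell library and 3701 and 2427 in the nucleus libraries, against 3108.5, 4352 and 2941 in the members. The immune cut took in 82.0% of the remaining cells and 17.9% and 21.8% of the remaining nuclei. It was also met by 60.7% of member cells and 6.40% and 9.43% of member nuclei. It therefore does not single out immune cells, and the sets it takes from cells and nuclei may differ in makeup. Just inside the threshold, barcodes with exactly 3 of the 8 genes held 4616 CPM of 22 other mesothelial genes in cells and 1964 and 2403 CPM in nuclei. Just outside, barcodes with exactly 2 held 1622 CPM in cells and 892.8 and 1060 CPM in nuclei. The same genes reached 14620 CPM in cells and 6427 and 7429 CPM in nuclei where 5 or more of the 8 were detected. The members with 3 or 4 genes are thus nearer to the other barcodes than the rest of the members are, and they are a larger share of the nuclei.

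The barcodes were also clustered without the 8 genes, as a check of the label. In the cell library, 1 cluster of 78 barcodes consisted of members alone and took 92.9% of the 84. In the nucleus libraries, 1 cluster of 435 barcodes was 95.2% members and took 83.5% of the 496. A further 28 member nuclei lay in a cluster led by Rtkn2 and Scel, genes of the alveolar type 1 cell. Of nuclei with exactly 3 genes, 27.8% and 42.0% were in the mesothelial cluster, against 63.6% of such cells.

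The members' share of all barcodes was 0.704% in the cell library (exact 95% binomial interval 0.562 to 0.871), 1.83% in nuclei replicate 1 (1.52 to 2.17) and 3.78% in nuclei replicate 2 (3.41 to 4.18). These intervals cover counting error only, and the nucleus replicates lay apart by more than it. With each barcode thinned to 1000 UMIs, shallower ones left out, the shares were 0.511%, 0.862% and 2.69%. The order of the libraries was the same, with the cell library lowest. It changed without the members that held 3 or more markers of another lineage, where the shares were 0.101%, 0.0146% and 0.122% and nuclei replicate 1 was lowest, but these rest on 12, 1 and 12 barcodes and their 95% exact binomial intervals (0.052 to 0.176%, 0.00037 to 0.0813% and 0.0632 to 0.214%) overlap. With 1 cell library this order has no test.

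Markers of other cell types were present among the members, in part at the level of the whole library. At least 3 of 8 immune markers were detected in 60.7% of member cells and in 6.40% and 9.43% of member nuclei, against 82.0% of the remaining cells and 17.9% and 21.8% of the remaining nuclei. The 8 markers of alveolar type 2 cells summed to 1120 CPM in member cells and 3540 and 4085 CPM in member nuclei, against 3708, 6041 and 6318 CPM in the remaining barcodes. Club cell markers summed to 877.2 CPM in member cells and to 14990 and 15000 CPM in member nuclei, near the 16600 and 17620 CPM of the remaining nuclei. Alveolar type 1 markers summed to 542.5 CPM in member cells and 2197 and 1559 CPM in member nuclei, against 772.9, 1847 and 2831 CPM in the remaining barcodes. Adventitial fibroblast markers were higher in members in all 3 libraries, at 1778 CPM in member cells and 459.9 and 938.9 CPM in member nuclei, against 259.1, 96.6 and 134.2 CPM in the remaining barcodes. Ciliated cell markers summed to 203.9 CPM in member cells and 391.2 and 511.2 CPM in member nuclei, against 329.8, 453.8 and 1645 CPM in the remaining barcodes, with 3 of 8, Foxj1 among them, at 0 UMIs in member cells. Smooth muscle and pericyte markers summed to 26.9 CPM in member cells and 40.8 and 30.4 CPM in member nuclei, against 120.1, 147.7 and 72.8 CPM in the remaining barcodes, with 4, 1 and 2 of 8 at 0 and Cnn1 at 0 in all 3 libraries. In member cells 3 of 8 club cell markers, 2 of 8 alveolar fibroblast markers and 1 of 8 alveolar type 1 markers were also at 0, as was Prox1 of the 6 lymphatic markers, and no immune, endothelial, type 2 or adventitial fibroblast marker was. In member nuclei 2 and 1 of the 8 adventitial fibroblast markers were at 0, Lum in both libraries, Reln of the lymphatic markers was at 0 in nuclei replicate 1, and no immune, endothelial, alveolar type 1, type 2 or club cell marker was. The part of these transcripts in the results that follow was not tested.

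Members were then set against all remaining barcodes of their own library, with 1 sum for members and 1 for the rest in each of the 3 libraries. Because the rule picked members by their own counts, this contrast is a description of the profile, and folds are given with their standard error and no p-value. With edgeR at an adjusted p of 0.05, 1067 of 17889 genes were higher in members (5.96%) and 1935 were lower (10.8%), and the median log2 fold over all genes was −0.23. These counts include the 8 genes of the rule and are not read as a result. In the lists that follow, genes counted as higher or lower in members are those past the same threshold, also as a description.

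Among genes the rule did not use, the long noncoding RNA Wt1os had the largest log2 fold, 8.32 ± 0.38 (SE). It stood at 57.7 CPM in member cells and 129.8 and 110.4 CPM in member nuclei, against 0.0560, 0.182 and 0.693 CPM in the remaining barcodes. Wt1os (chr2:105076538-105126510, minus strand) lies head to head with Wt1 and starts just before it without overlap. Nxph1, a secreted ligand of neurexins known from neurons, stood at 773.4 CPM in member cells and 1419 and 1272 CPM in member nuclei, against 1.40, 4.22 and 13.7 CPM in the rest. Bnc1, a zinc finger factor of keratinocytes and mesothelium, stood at 96.2 CPM in member cells and 105.7 and 148.7 CPM in member nuclei, against 0.112, 1.13 and 2.62 CPM in the rest. Wdr17, which encodes a WD repeat protein, was the most abundant of the named genes, at 5267 CPM in member cells and 10880 and 10580 CPM in member nuclei, against 20.6, 144.5 and 316.5 CPM. For each of these genes every member sum lay above every sum of remaining barcodes. Further genes by the same rule were Chst4 (log2 fold 6.73 ± 0.40), Pkhd1l1 (6.57 ± 0.31), Gata4 (6.52 ± 0.29), Ephb1 (6.46 ± 0.28), Fras1 (6.08 ± 0.25), Aldh1a2 (6.06 ± 0.27) and Grip1 (5.87 ± 0.44). Pcnx2, Lvrn, Synpr and Hs3st4 completed the 15 genes of the rule, with log2 folds of 5.72 to 6.68. Without nuclei replicate 2 the log2 folds were 9.48 for Wt1os, 8.60 for Nxph1, 7.78 for Chst4, 7.49 for Bnc1, 7.02 for Grip1, 6.97 for Wdr17 and 6.47 for Hs3st4. Without the cell library they were 5.73 for Wdr17 and 4.86 for Grip1.

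Of 21 other mesothelial genes tested, 18 were higher in members and none lower, with a median log2 fold of 2.91. They joined membrane and secreted genes. Nkain4, which encodes a partner of the sodium pump, stood at 296.3 CPM in member cells and 140.9 and 153.9 CPM in member nuclei, against 5.27, 6.69 and 6.31 CPM in the rest. Cldn15, a claudin that forms cation channels in tight junctions, stood at 142.4 CPM in member cells and 38.9 and 77.4 CPM in member nuclei, against 2.86, 1.60 and 3.85 CPM. Gpc3, a heparan sulfate proteoglycan, stood at 2274 CPM in member cells and 1817 and 2510 CPM in member nuclei, against 54.6, 89.6 and 150.3 CPM.

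**Figure D3:**
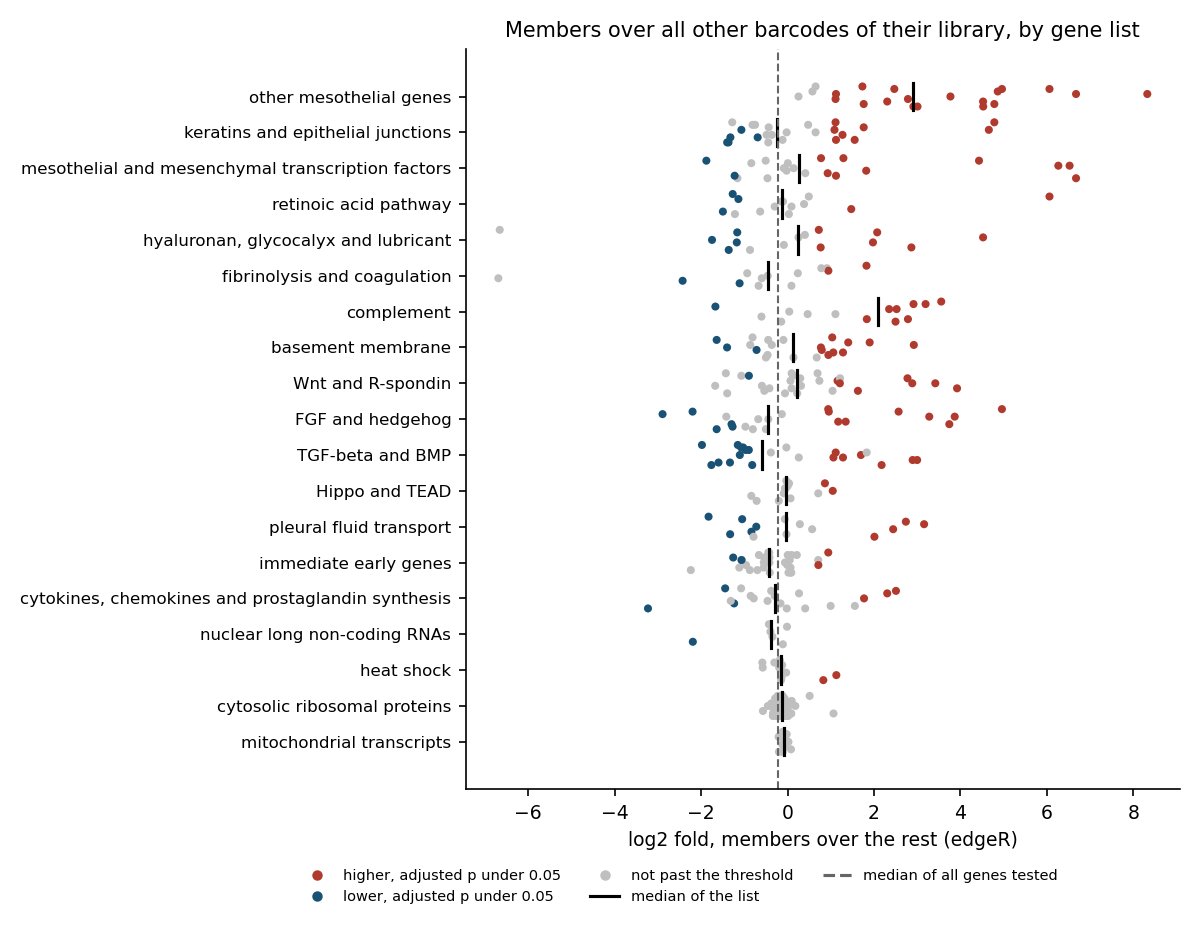
Log2 fold of members over the remaining barcodes for each tested gene of each list, coloured where edgeR's adjusted p was under 0.05, with a bar at each list's median and a dashed line at the median of all genes. The other mesothelial list has a median of 2.91 and the complement list 2.09, and grey points at the far left have 0 counts in members, so their place depends on the prior count.

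Transcription factors of the mesothelial and lung mesenchymal lineages formed a mixed group, with 9 of 20 higher and 2 lower. Gata4, a factor of heart and visceral mesoderm, stood at 88.5 CPM in member cells and 94.6 and 186 CPM in member nuclei, against 0.701, 0.727 and 2.73 CPM in the rest. Gata6, its paralog that the lung epithelium also uses, had a smaller log2 fold of 1.82, at 188.5 CPM in member cells and 189.1 and 253.9 CPM in member nuclei, against 21.1, 66.4 and 108 CPM. Tbx18, a T-box factor of mesothelial progenitors, stood at 46.2 CPM in member cells and 7.42 and 29.6 CPM in member nuclei, against at most 0.539 CPM in any sum of the rest, a log2 fold of 6.26 that was 5.64 without the cell library. Bnc2, the paralog of Bnc1, had a log2 fold of 4.43. Zeb2, a repressor of epithelial genes, was lower, at 357.8 CPM in member cells and 107.5 and 220 CPM in member nuclei, against 837.4, 744.1 and 630.1 CPM.

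Of 14 genes of retinoic acid metabolism and response, 2 were higher and 3 lower. Aldh1a2, the enzyme that makes retinoic acid in mesothelium and embryo, stood at 542.5 CPM in member cells and 343 and 515.5 CPM in member nuclei, against 4.20, 5.38 and 11.9 CPM in the rest. Rarb, a retinoic acid receptor that retinoic acid itself induces, was lower at −1.14, a direction that did not hold over adventitial fibroblast barcodes (0.72 ± 0.40) or alveolar ones (−0.08 ± 0.24).

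Ligands and receptors of fibroblast growth factor and hedgehog signalling had 9 of 21 higher and 5 lower. Fgf9, the ligand of the embryonic pleura, stood at 11.5 CPM in member cells and 53.8 and 47.8 CPM in member nuclei, against 0.897, 1.13 and 1.39 CPM in the rest, and Fgf18 had a log2 fold of 3.87 that was 4.52 without nuclei replicate 2. Fgf10, the ligand of lung mesenchyme, was lower at −2.20. The hedgehog signal transducer Smo stood at 177 CPM in member cells and 194.7 and 267.8 CPM in member nuclei, against 7.54, 19.2 and 21.2 CPM, and the effector Gli2 had a log2 fold of 3.28. The receptor and target Ptch1 differed less, with a log2 fold of 0.94. Gli2 stood at 0.37 ± 0.22 over adventitial fibroblast barcodes and at 1.42 ± 0.19 over alveolar ones.

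Wnt genes had 7 of 27 higher and 1 lower. Among the higher were the ligand Wnt9a, with a log2 fold of 2.89, and the secreted inhibitor Sfrp1, with 3.42. The value for Sfrp1 was 2.72 without the cell library. Over adventitial fibroblast barcodes none of 15 Wnt genes was higher and 4 were lower, with Wnt9a at 0.34 ± 0.35 and Sfrp1 at 0.85 ± 0.37. Over alveolar ones 6 of 26 were higher and 3 lower, with Wnt9a at 1.88 ± 0.29 and Sfrp1 at 2.57 ± 0.32. Genes of transforming growth factor and bone morphogenetic protein signalling had 7 of 22 higher and 11 lower. Tgfb2, a ligand, stood at 265.5 CPM in member cells and 317.1 and 507.7 CPM in member nuclei, with a log2 fold of 3.0, and the receptor gene Bmpr1b at 219.3 CPM in member cells and 445 and 723.3 CPM in member nuclei, against 3.17, 77.4 and 323.1 CPM in the rest. The remaining nuclei of replicate 2 thus lay above the member cells for Bmpr1b.

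Complement genes had 8 of 14 higher and 1 lower, with a median log2 fold of 2.09. C4b, a component of the classical pathway with a near copy in C4a that could split its reads, stood at 1012 CPM in member cells and 133.5 and 253.9 CPM in member nuclei, against 23.6, 19.2 and 39.1 CPM in the rest. Its log2 fold of 3.56 was 2.82 without the cell library. Cfb, of the alternative pathway, had a log2 fold of 3.19.

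Junction and keratin genes were 8 higher and 5 lower of 24. The cadherins went apart. Cdh3 stood at 26.9 CPM in member cells and 22.3 and 59.1 CPM in member nuclei, against 0.140, 1.85 and 2.31 CPM in the rest, whereas Cdh1, the cadherin of lung epithelium, stood at 7.70 CPM in member cells and 77.9 and 139.1 CPM in member nuclei, against 36.6, 184.7 and 323.7 CPM. Over adventitial fibroblast barcodes Cdh1 had a log2 fold of 0.48 ± 0.30. Of the glycocalyx genes, 6 of 15 were higher and 4 lower. Has1, a hyaluronan synthase, stood at 50.02 CPM in member cells and 37.1 and 70.4 CPM in member nuclei, against 14.8, 5.02 and 5.16 CPM. Its log2 fold was 0.31 ± 0.42 over adventitial fibroblast barcodes and 2.16 ± 0.34 over alveolar ones. Basement membrane genes were 9 higher and 3 lower of 21, with Nid2 at a log2 fold of 2.92 and Lama2, a laminin chain of mesenchyme and muscle, at −1.64. Of the transport genes, 4 of 14 were higher and 5 lower. Aqp1, a water channel, stood at 1366 CPM in member cells and 181.7 and 295.6 CPM in member nuclei, against 240.2, 65.8 and 64.8 CPM.

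Among the 8 genes named for the lowest folds were immune genes. Mrc1, the macrophage mannose receptor, stood at 26.9 CPM in member cells and 18.5 and 22.6 CPM in member nuclei, against 287.3, 95.6 and 106.2 CPM in the rest, a log2 fold of −2.64. Ighg2c, an immunoglobulin chain of a multigene family whose reads counting can split, had a log2 fold of −3.55 that was −1.24 without the cell library and −6.15 without nuclei replicate 2, and DESeq2 did not call it. Tafa1, Zfp366, Adcy8, Tbx3os1, Edil3 and Slc15a3 were the others named by size, with log2 folds of −2.76 to −2.56, and Adcy8 stood at −3.59 without nuclei replicate 1. No ribosomal protein gene of 80 tested and no mitochondrial transcript of 11 passed in either direction in edgeR or DESeq2, and at an unadjusted p under 0.05 edgeR had 1 ribosomal gene higher and 1 lower.

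The remaining barcodes held 3 or more immune markers in 82.0% of cells and in 17.9% and 21.8% of nuclei. That cut does not single out immune cells, but the makeup of the rest may differ between preparations. Members were therefore also set against fibroblast barcodes of the same libraries, a comparison chosen after seeing the data. Barcodes with at least 3 of 8 adventitial fibroblast markers numbered 330 in the cell library and 59 and 95 in the nucleus libraries. Those with at least 3 of 8 alveolar fibroblast markers numbered 1858, 1320 and 1579, which is 15.7%, 19.6% and 16.7% of the remaining barcodes. The alveolar cut was also met by 22.6% of member cells and 19.2% and 13.5% of member nuclei. The alveolar set may therefore hold other cell types, whose part was not tested. Over adventitial barcodes 665 of 8582 genes were higher in members (7.75%) and 722 lower (8.41%). Over alveolar barcodes 1030 of 14740 were higher (6.99%) and 1091 lower (7.40%).

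Of the other mesothelial genes, 15 of 19 were higher in members than in adventitial barcodes and 17 of 20 higher than in alveolar barcodes, and none was lower in either. Wt1os had log2 folds of 8.61 ± 0.73 and 8.20 ± 0.42 over adventitial and alveolar barcodes, and Bnc1 7.02 ± 0.58 and 6.87 ± 0.34. Aldh1a2 stood closer to the adventitial barcodes, with a log2 fold of 3.79 ± 0.23, than to the alveolar ones, at 6.34 ± 0.31. The epithelial genes Krt19 and Cdh3 were higher than in both, with Krt19, a keratin, at 2.59 ± 0.45 and 1.93 ± 0.24 and Cdh3 at 4.42 ± 0.75 and 4.91 ± 0.54. Of 17 junction and keratin genes, 10 were higher than in adventitial barcodes and none lower, with a median log2 fold of 1.72. Over alveolar barcodes 7 of 24 were higher and 2 lower, Cdh1 at −0.83 and Ocln at −0.82, with a median of 0.17. Mesothelial and mesenchymal transcription factors split, with 6 of 16 higher and 5 lower over adventitial barcodes and 7 of 20 higher and 9 lower over alveolar ones. Gata4 and Tbx18 were higher in both. Among mesenchymal genes named above, Fgf10, Lama2 and Zeb2 were lower in members than in adventitial and in alveolar barcodes. Fgf10 stood at −4.84 ± 0.27 and −4.16 ± 0.27, Lama2 at −4.86 ± 0.23 and −3.23 ± 0.23, and Zeb2 at −2.78 ± 0.35 and −2.25 ± 0.23. The hedgehog targets changed sign with the comparator. Gli1 stood at −1.35 ± 0.41 and Ptch1 at −1.0 ± 0.21 over adventitial barcodes, but Gli1 at 1.53 ± 0.45 and Ptch1 at 0.18 ± 0.17 over alveolar barcodes.

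The question of what dissociation and nuclear isolation each capture was asked within the mesothelium by testing the members of the cell library against those of the 2 nucleus libraries. Of 9519 genes tested with edgeR, 1330 were higher in cells (14.0%) and 858 lower (9.01%) at an adjusted p of 0.05. DESeq2 called fewer, 376 higher and 65 lower. The residual spread rests on the 2 nucleus libraries alone, and the single cell library is assumed to vary like them.

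Immediate early genes, whose transcription a stimulus starts without new protein synthesis, were higher in member cells as a group, with 23 of 25 tested higher, none lower and a median log2 fold of 3.78 against −0.08 for all genes. Under DESeq2 14 were higher. Fosb, a subunit of the AP-1 factor, had 104 UMIs in member cells and 0 in both sums of member nuclei, which put it at least 225.4-fold higher in cells against a floor of 3 counts over the nucleus group, and at least 71.9-fold without nuclei replicate 2. Egr1, a zinc finger factor, stood at 642.5 CPM in member cells and 1.85 and 5.22 CPM in member nuclei. Fos, the partner of Jun in AP-1, stood at 484.8 CPM in member cells and 5.56 and 3.48 CPM in member nuclei. Jun itself stood at 469.4 CPM in cells against 37.1 and 32.2 CPM in nuclei (log2 fold 3.83 ± 0.38, edgeR adjusted p = 5.51e-19). Dusp1, a phosphatase that ends kinase signalling, stood at 423.2 CPM in cells against 33.4 and 20.9 CPM in nuclei (4.08 ± 0.39, edgeR adjusted p = 8.03e-20). Junb, another AP-1 subunit, had a ratio of cells to nuclei of 51.6 with a counting interval of 35.0 to 78.7. In each case the cell value lay above both nucleus values. Fosl2 and Cebpd missed the threshold, Fosl2 at 157.7 CPM in cells and 70.5 and 90.4 CPM in nuclei (edgeR adjusted p = 0.0533). The remaining cells also held 591.8 CPM of Fosb, against 0.436 and 0.616 CPM in the remaining nuclei.

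**Figure D4:**
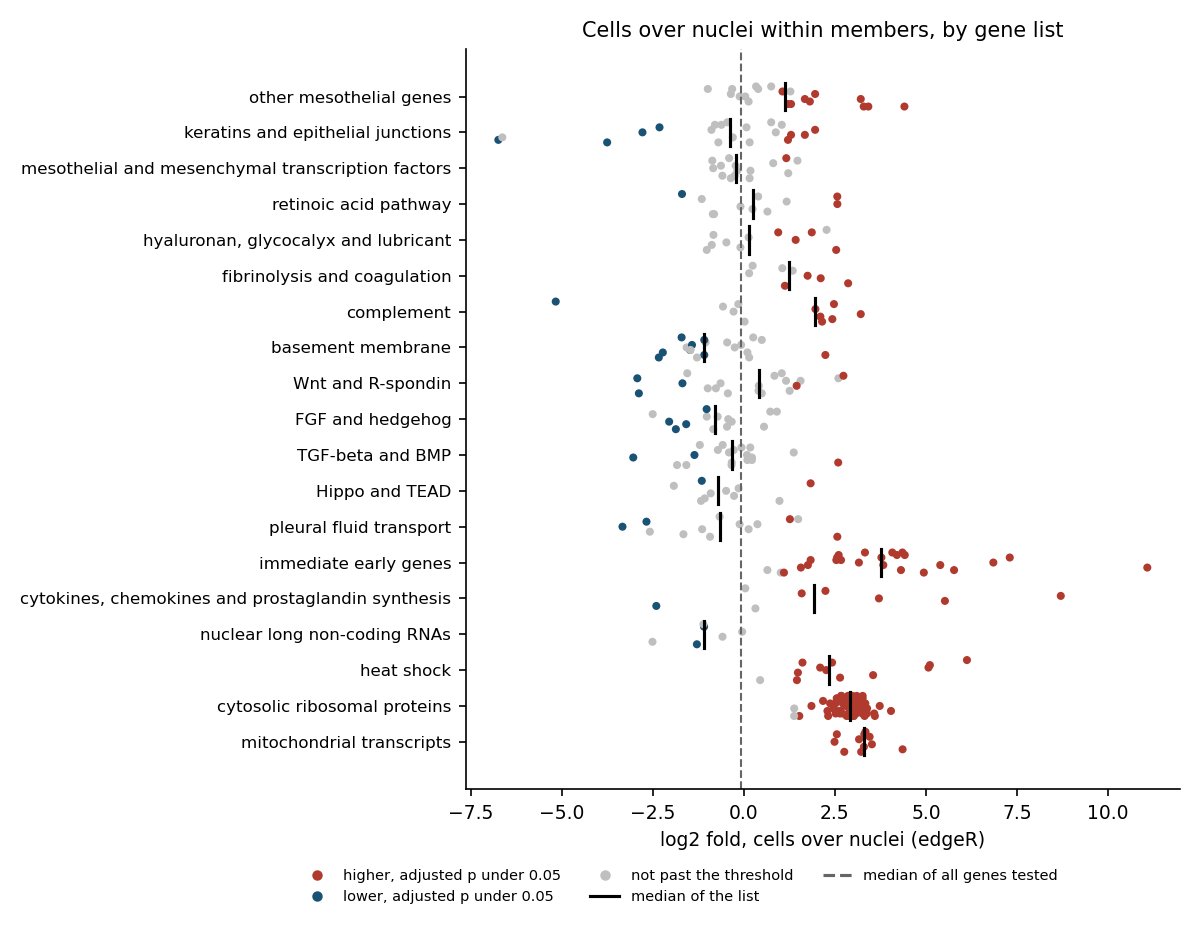
Log2 fold of member cells over member nuclei for each tested gene of each list, coloured where edgeR's adjusted p was under 0.05, with a bar at each list's median and a dashed line at the median of all genes. Immediate early genes have a median of 3.78 and mitochondrial transcripts 3.30, while the basement membrane list has a median of −1.09.

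Heat shock genes moved likewise, with 11 of 12 higher and a median log2 fold of 2.34, of which DESeq2 called 3. Hsp90ab1, a cytosolic chaperone, stood at 834.9 CPM in member cells and 153.9 and 125.2 CPM in member nuclei (2.64 ± 0.35, edgeR adjusted p = 2.25e-11). The small heat shock protein gene Hspb1 stood at 253.9 CPM in cells and 35.2 and 13.9 CPM in nuclei, with a log2 fold of 3.55 that was 4.29 without nuclei replicate 1. Hspa1a had 14 UMIs in member cells and 1 and 0 in the nucleus libraries, a ratio of 91.0 with a counting interval of 13.9 to 3848, and its near-identical copy Hspa1b makes the split of reads between them uncertain. Bag3 was the member of the list that missed the threshold.

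Transcripts of the cytoplasm were nearly all higher in member cells. Ribosomal protein genes, many of which have processed pseudogenes that can take their reads, were 75 of 77 higher with a median log2 fold of 2.91, and mitochondrial transcripts 11 of 11 with a median of 3.30. DESeq2 called 72 and 11 of them. The mitochondrial share per barcode had a median of 2.45% in member cells and 0.281% and 0.226% in member nuclei. The nuclear RNA Malat1 was lower in cells, at 14460 CPM against 29940 and 34300 CPM in nuclei (−1.09 ± 0.31, edgeR adjusted p = 0.00394), a call that neither DESeq2 nor the members in the mesothelial clusters gave.

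Of 20 other mesothelial genes tested, 10 were higher in member cells and none lower, with a median log2 fold of 1.14, while DESeq2 called 4. Slpi, a protease inhibitor of mucosal surfaces, stood at 1481 CPM in member cells and 79.7 and 66.1 CPM in member nuclei (4.41 ± 0.36, edgeR adjusted p = 2.58e-26). Aebp1, a collagen-binding matrix protein, stood at 911.9 CPM in cells and 96.4 and 81.7 CPM in nuclei (3.42 ± 0.36, edgeR adjusted p = 3.02e-17). Igfbp6, which binds insulin-like growth factor 2, stood at 2005 CPM in cells and 137.2 and 285.2 CPM in nuclei (3.29 ± 0.34, edgeR adjusted p = 1.02e-17). C3, the central complement component, stood at 2670 CPM in cells and 202.1 and 395.6 CPM in nuclei (3.21 ± 0.33, edgeR adjusted p = 1.64e-17). Without nuclei replicate 2 the log2 folds were 3.99 for Igfbp6 and 3.85 for C3. The keratins Krt7, Krt18 and Krt19 passed in edgeR with log2 folds of 1.21, 1.96 and 1.68 but not in DESeq2.

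Others of the list did not pass. Bnc1 had a log2 difference of −0.36 (edgeR adjusted p = 0.571) and Wt1os of −0.99 (0.119), and Aldh1a2 stood at 542.5 CPM in member cells against 343 and 515.5 CPM in member nuclei (0.39, 0.441). Gpc3, with 2274 CPM in cells against 1817 and 2510 CPM in nuclei, had a cell value between the nucleus values (0.13, edgeR adjusted p = 0.80). Of 15 transcription factors tested 1 was higher and none lower, and DESeq2 called none, also at an unadjusted p under 0.05. The one was Zeb2, whose members lay below the remaining barcodes in every library.

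Complement genes were mostly higher in member cells, with 6 of 11 higher and 1 lower, and 3 and 1 under DESeq2. Serping1, the inhibitor of the first complement component, stood at 765.7 CPM in member cells and 129.8 and 155.6 CPM in member nuclei. C7, of the terminal complex, was the lower one, with 1 UMI in cells and 71 and 193 in nuclei, a ratio of nuclei to cells of 40.6 with a counting interval of 7.23 to 1610. Among members in the mesothelial clusters C7 was no longer called. The water channel Aqp1 stood at 1366 CPM in member cells and 181.7 and 295.6 CPM in member nuclei (2.57 ± 0.34, edgeR adjusted p = 1.83e-11).

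Cytokine and inflammatory genes were 5 higher and 1 lower of 8 in edgeR, and DESeq2 called none, with 4 higher and 1 lower at an unadjusted p under 0.05. Ptgs1, a cyclooxygenase of mesothelium, stood at 223.2 CPM in member cells and 68.6 and 84.3 CPM in member nuclei (1.59, edgeR adjusted p = 5.46e-04). Il33, whose protein is an alarmin, was lower in cells, at 19.2 CPM against 118.7 and 96.5 CPM in nuclei (−2.40). It was among the leading genes of another nucleus cluster and did not pass in members over the rest. The part of transcripts of that cluster in its nuclear level was not tested. Other genes with large folds here belong to leukocytes. Ccl5, a chemokine of T and natural killer cells, stood at 192.4 CPM in member cells and 5.56 and 1.74 CPM in member nuclei, and at 452 CPM in the remaining cells against 10.9 and 7.39 CPM in the remaining nuclei. Cd28, the T cell costimulator, stood at 127 CPM in member cells and 1.85 and 2.61 CPM in member nuclei, and at 144.4 CPM in the remaining cells. Cxcl2 and Ccl4 had 20 and 16 UMIs in member cells and 0 in member nuclei, at least 43.3-fold and 34.7-fold higher against the floor over the group, and at least 13.8-fold and 11.1-fold without nuclei replicate 2. Nlrp3, the inflammasome sensor of myeloid cells, and Iqcn and Rtn2, of which no mesothelial role is given here, also ranked among the 12 largest folds, with 20, 38 and 20 UMIs in member cells and at most 3 in a nucleus library. The 8 immune markers moved the same way, at 2405 CPM in member cells and 291.1 and 479.9 CPM in member nuclei, and their part in these differences was not tested.

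The 12 genes with the largest folds towards nuclei were led by genes at 0 UMIs in member cells. Mtcl1, a microtubule crosslinker, had 0 UMIs in member cells and 80 and 150 in member nuclei, so it was at least 12.1-fold lower against a floor of 3 counts. Trpm6, a magnesium channel, and Kctd8 were likewise at 0 UMIs in cells and at least 7.84-fold and 6.71-fold lower. Garnl3, Galnt13, Itprid1, Adcy2 and Rgs22 were at 0 UMIs in member cells too, and at least 4.43-fold to 5.72-fold lower. Without nuclei replicate 2 the bounds were 3.86-fold for Kctd8, 2.89-fold for Itprid1 and 3.05-fold for both Adcy2 and Rgs22. Ank3, an ankyrin of lateral membranes, had 1 UMI in member cells and 285 and 1020 in member nuclei, a ratio of nuclei to cells of 200.7 with a counting interval of 36.0 to 7935. Zfp568, a zinc finger gene, had 2 UMIs in member cells and 59 and 664 in member nuclei, which lay far apart. Rtkn2, which marks alveolar type 1 cells, stood at 19.2 CPM in member cells and 1181 and 645.1 CPM in member nuclei, and the remaining barcodes held 78.0 CPM in cells and 871.7 and 1439 CPM in nuclei. Alveolar type 1 markers summed to 542.5 CPM in member cells against 2197 and 1559 CPM in member nuclei. Club cell markers summed to 877.2 CPM against 14990 and 15000 CPM, and type 2 markers to 1120 CPM against 3540 and 4085 CPM. Immune, endothelial, lymphatic and adventitial fibroblast markers ran the other way. Itprid1 and Rgs22 were the first leading genes of other nucleus clusters, the former with the club cell marker Gabrp. Ank3 was among the leading genes of a cell cluster led by Sftpc. The part of transcripts of other cell types in the lower genes was not tested.

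Basement membrane genes leaned the same way, with 1 of 19 higher in member cells and 7 lower and a median log2 fold of −1.09, though DESeq2 called none, with 1 higher and 5 lower at an unadjusted p under 0.05. Col4a3, a chain of the collagen network of thin lung membranes, stood at 169.3 CPM in member cells and 461.7 and 519 CPM in member nuclei (−1.48, edgeR adjusted p = 0.00292). Lama2, Lama3 and Lama5 were among the lower genes, and Lamb2 was the higher one with a log2 fold of 2.24. Col4a3 and Lama3 were among the leading genes of the nucleus cluster led by Rtkn2 and Scel, which held 28 member nuclei. The part of alveolar type 1 transcripts in these differences was not tested. Among members in the mesothelial clusters the list's median log2 fold was −0.69, and Lama2 and Lama3 were no longer called. Of the fibroblast growth factor and hedgehog genes, 4 of 14 were lower in cells and none higher, with no call in DESeq2 and 3 lower there at an unadjusted p under 0.05. Fgf9 was one of them, with a log2 fold of −2.05 (edgeR adjusted p = 0.0396, or 0.0537 with relative log expression scaling).

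Whether the difference between cells and nuclei was the same in members as elsewhere was tested as the difference of the 2 differences. Of 19149 genes, 100 had a higher cell-to-nucleus ratio in members than in the remaining barcodes (0.522%) and 106 a lower one (0.554%). DESeq2 called 49 and 12, and with relative log expression scaling in place of trimmed means the counts were 174 and 80. The median log2 difference over all genes was −0.54, against −0.29 with that scaling and −0.02 in DESeq2. The remaining barcodes held 3 or more immune markers in 82.0% of cells and in 17.9% and 21.8% of nuclei, a cut that does not single out immune cells. The ratio in the remaining barcodes may also carry a change of makeup, whose part was not tested.

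Igfbp5, Slurp1 and Sbsn, which encode secreted proteins, were among the genes named for the highest ratio in members. Igfbp5, a binding protein of insulin-like growth factors, stood at 6525 CPM in member cells and 726.9 and 1450 CPM in member nuclei, while the remaining barcodes ran the other way, at 30.6 CPM in cells and 96.5 and 207.7 CPM in nuclei (log2 difference 4.50 ± 0.36, edgeR adjusted p = 4.87e-32). Slurp1, a small secreted protein of epithelia, stood at 288.6 CPM in member cells and 9.27 and 40.9 CPM in member nuclei, against 0.252 CPM in the remaining cells and 1.27 and 5.77 CPM in the remaining nuclei (6.88 ± 0.70, edgeR adjusted p = 3.90e-19). Sbsn, a secreted protein of stratified epithelia, stood at 230.9 CPM in member cells and 20.4 and 39.1 CPM in member nuclei, against 1.79 CPM in the remaining cells and 4.43 and 8.20 CPM in the remaining nuclei (4.37 ± 0.59, edgeR adjusted p = 1.09e-10). In all 3 genes the members' cells lay above their nuclei and the remaining cells lay below the remaining nuclei. Msln, Upk3b and Lrrn4 were also higher in member cells than in member nuclei and lower in the remaining cells than in the remaining nuclei. They are genes of the rule, which bears on their levels in both sets, so this is a description only. How much of these levels in the remaining nuclei is background was not tested.

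**Figure D5:**
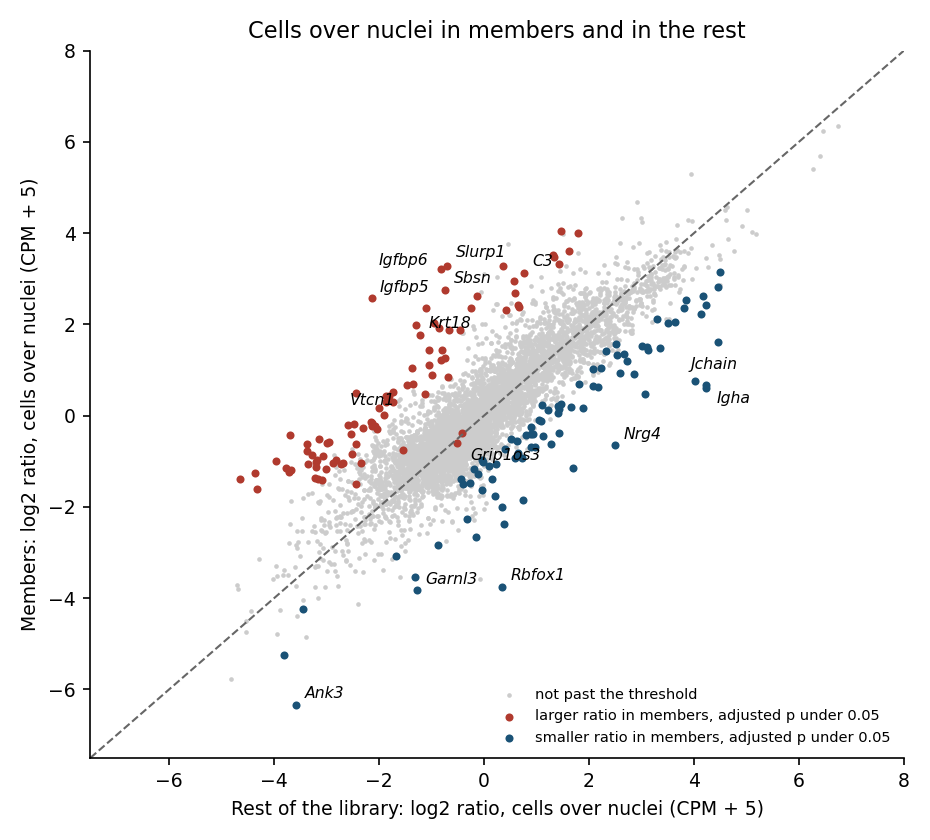
Log2 ratio of cells over nuclei in members (y axis) against the same ratio in the remaining barcodes (x axis), for 5705 genes with at least 50 CPM in members of a library, with 5 CPM added to every value. Igfbp5, Slurp1 and Sbsn lie high on the left, above 0 in members and below 0 in the remaining barcodes.

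Of 21 other mesothelial genes, 7 had a higher ratio in members and none a lower one. Igfbp6 had a log2 difference of 3.83 ± 0.37 (edgeR adjusted p = 9.78e-22), Aebp1 of 2.55 (4.57e-08), and C3 of 1.99 (6.00e-06), and Krt18 of 3.14 (5.68e-06). Bnc1, Krt7 and Krt8 were the others, and DESeq2 did not call those 3. Without nuclei replicate 1 the values were 3.26 for Aebp1 and 3.80 for Krt18, and without nuclei replicate 2 they were 4.61 for Igfbp6 and 2.62 for C3. The immediate early genes had no member of 30 with a higher ratio and 3 with a lower one, Egr2, Fosl2 and Nfkbiz. DESeq2 called none of the 30, with 3 lower at an unadjusted p under 0.05. Complement genes had 3 of 14 and junction genes 4 of 25 with a higher ratio, and none lower.

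Rbfox1, a splicing factor of neurons and muscle, was among the 6 genes named for the lowest ratio in members. It stood at 57.7 CPM in member cells and 986.5 and 690.3 CPM in member nuclei, against 35.0 CPM in the remaining cells and 17.2 and 36.1 CPM in the remaining nuclei (−4.70 ± 0.45, edgeR adjusted p = 4.16e-22). Without nuclei replicate 1 its value was −3.52, and over the 25 members without markers of another lineage it turned to 1.47. Igha and Jchain, the immunoglobulin A chain and the chain that joins its units, had log2 differences of −3.97 and −3.74. Igha stood at 134.7 CPM in member cells and 46.4 and 118.2 CPM in member nuclei, against 1963 CPM in the remaining cells and 60.5 and 138 CPM in the remaining nuclei. Without nuclei replicate 2 the values were −3.37 for Igha and −3.08 for Jchain, and with adventitial fibroblast barcodes in place of the rest both turned, to 1.32 and 1.41, with neither past the threshold (edgeR adjusted p = 0.315 and 0.637). Igha belongs to a gene family whose reads counting can split.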

How the data were processed

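The deposited tables hold raw UMI counts per gene and barcode, made by the authors with STAR 2.5.3a on mm10, per the submitters' processing notes. Which tool counted UMIs, whether introns and strand were used, and how barcodes were filtered is not given in the sources used here. The cell table and the nucleus table share 21507 gene symbols, and only these were analysed. The highest number of genes per barcode was 2499, 2499 and 2999 in the cell library and the 2 nucleus libraries, so deeper barcodes are not in the tables. All barcodes were kept and no doublet caller was run. The members and lists were chosen with earlier results of these data known.

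Counts were summed per library over members and over the remaining barcodes, and tested with edgeR 4.0.16 in R 4.3.3 (quasi-likelihood test, trimmed mean scaling, filterByExpr, Benjamini-Hochberg adjusted p under 0.05 over all genes tested). Cells over nuclei used 3 sums, and the other tests used 6 sums with the library as a block, which pairs the members with the rest of the same library. Named genes were the 12 per direction with the largest fold between cells and nuclei and the 15 higher and 8 lower in members. In the difference of differences they were the 6 per direction. All had adjusted p under 0.05, at least 50 CPM and a change of at least 2-fold. All libraries had to lie on the same side, except in the difference of differences, where this was not asked. Genes of the fixed lists could be named too, and clone-like symbols were left out. Some genes that the rule or the lists take in are not reported here. Alternatives were DESeq2 1.42.0, relative log expression scaling, no filter on low counts, at least 4 of the 8 genes, barcodes thinned to 1000 UMIs, a filter of 400 genes and 20% mitochondrial UMIs, members without 3 or more markers of another lineage, members in Leiden clusters (scanpy 1.11.5, resolution 1, 2000 variable genes, 30 components, 20 neighbours, built per table without the 8 genes) of which members were at least 50%, each library left out, and fibroblast barcodes in place of the rest, the last chosen after seeing the data. Positions are from GENCODE on GRCm38. Promoters are from RefSeq, which gives entries for 5 of the 8 genes, and that of Lrrn4 was picked for printing after the motif search. The scripts were tested on simulated data.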

Additional observations from a re-analysis of the deposited data

Results flagged for a closer look

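The ratio of cells to nuclei differed between members and the remaining barcodes, by the edgeR test of that difference, for 100 genes with a higher and 106 with a lower ratio in members. All results here were picked out by that same test, and the genes named are among those with the largest differences in each direction. Genes with a higher ratio in members were Grip1os3 (log2 difference 7.12), Slurp1 (6.88), Igfbp5 (4.50), Vtcn1 (4.42) and Sbsn (4.37). Grip1os3 had 0 UMIs in the remaining cells, so its value depends on the prior count and is no bound, and it overlaps the start of Grip1 on the other strand. Whether counting used strand is not given in the sources used here, so reads of the pair may not be told apart. Genes with a lower ratio in members were Garnl3 (−11.75), Rbfox1 (−4.70), Ank3 (−4.28), Igha (−3.97), Jchain (−3.74) and Nrg4 (−3.69). Garnl3 had 0 UMIs in member cells and its value is no bound either. Ank3 stood at 3.85 CPM in member cells and 528.5 and 886.8 CPM in member nuclei, against 216.1 CPM in the remaining cells and 2125 and 3129 CPM in the remaining nuclei. Nrg4 moved to −1.59 without nuclei replicate 1 and to −4.68 without nuclei replicate 2, values that have no test because no residual degree of freedom is left. Leaving out nuclei replicate 1 gave 8.44 for Grip1os3, 5.46 for Vtcn1 and −3.52 for Rbfox1, and leaving out nuclei replicate 2 gave 6.09 for Grip1os3, −3.69 for Ank3, −3.37 for Igha and −3.08 for Jchain. DESeq2 did not call Grip1os3, Garnl3, Ank3 or Nrg4.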

How the results depend on the processing

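Members' shares for cells and nuclei replicates 1 and 2 were 0.511%, 0.862% and 2.69% after thinning, 1.30% and 2.96% for the nuclei with at least 4 of the 8 genes, and 1.43% and 3.22% for the nuclei in clusters that members make up. Without members that held 3 or more markers of another lineage they were 0.101%, 0.0146% and 0.122%, which is 12, 1 and 12 barcodes. Of genes differing between member cells and nuclei, DESeq2 called 376 higher and 65 lower, the lower count was 363 after thinning and 499 in the clusters, and without members of mixed markers edgeR called 0 and 0 of 799 genes, with 95 and 4 at an unadjusted p under 0.05. Over the remaining barcodes, DESeq2 called 872 lower, the set without mixed markers gave 176 higher and 198 lower, and leaving out 1 library gave 654 to 1141 higher and 914 to 1481 lower, the lowest of both without nuclei replicate 2. Adventitial barcodes as comparator gave 665 and 722, and alveolar barcodes 1091 lower. With no library as a replicate block the counts were 138 higher and 1 lower. For the difference of differences, DESeq2 called 49 and 12, relative log expression scaling 174 higher, at least 4 genes 24 lower, the set without mixed markers 1 and 0 (75 and 6 at an unadjusted p under 0.05 in edgeR), adventitial barcodes 29 and 25, and alveolar barcodes 62 lower. No paired analysis was possible because the cell library carries no replicate number of its own, which bears on cells over nuclei and on the difference of differences. Leaving out 1 nucleus library gave values without a test for those results, since no residual degree of freedom is left. The cause of these changes was not tested. Signs turned against adventitial barcodes for Cdh1 (0.48), Gli1 (−1.35), Ptch1 (−1.0), Rarb (0.72) and Serping1 (−0.72), and in the difference of differences for Igha (1.32) and Jchain (1.41). Without members of mixed markers the sign turned there for Rbfox1 (1.47). With 84 member cells in 1 library, genes under about 50 CPM rest on few UMIs, and a count of 0 in member cells allows up to 3. Doublets were not called, and members with markers of another lineage were kept. A p-value for cells over nuclei or for the difference of differences rests on the spread of 2 nucleus libraries, which edgeR moderates across genes. Members over the rest used the sums of all 3 libraries.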
